A study of Saccharomyces cerevisiae with 64 samples.

Results

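The genes described here are 60 ribosome biogenesis genes of budding yeast, Saccharomyces cerevisiae, which encode proteins of the small-subunit processome, factors that assemble the large subunit and proteins of small nucleolar ribonucleoproteins (snoRNPs). They were taken by name from a list that uses no threshold on measured values but was drawn up with earlier results of these data known, and all 60 were found among the 7053 gene names of the deposited RNA table. REA1 is listed there under its other name, MDN1. NOP58 shares an entry with the overlapping frame YOR309C, so that the counting did not separate these 2 genes, and the other 59 have an entry of their own. SSF1 has a near-identical copy, SSF2, so its reads may have been shared out between both genes.

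Ribosomes are built in the nucleolus from a long precursor RNA made by RNA polymerase I. The small-subunit processome assembles on the precursor as it is made, snoRNPs guide methylation and pseudouridylation of it, and a further series of factors folds and trims the large subunit before export. In yeast these genes are known to be expressed as one of the most tightly co-regulated groups, high in fast growth and low under stress.

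The series measured DNA replication and RNA in yeast with raised levels (overexpression, OE) of either Fkh1 or Fkh2, transcription factors of the forkhead family. The RNA came from 3 groups of 2 libraries each: Fkh1 OE and Fkh2 OE, in which the factor was driven by the galactose-inducible GAL promoter, and no OE, a wild type with the empty GAL promoter. In all 3 groups the cells were held in G1 by 7.5 nM α-factor, the mating pheromone, for 3 h at 25 °C in medium with 2% raffinose, and then kept for 2 h in 2% galactose with α-factor. No drug was given, and polyadenylated RNA was sequenced. The controls thus carried the same arrest and the same sugar, and the study's RNA has no group without galactose or without α-factor to set beside them.

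Levels are in FPKM, fragments per kilobase of transcript scaled for the size of the library, a level per length. The setting by which the authors scaled the libraries is not given. The authors' deposited table gives 1 FPKM per gene and group, made from both libraries. Each pair of groups has a p-value and a q-value, a p-value adjusted for the number of tests. Equal p-values have equal q in all 3 comparisons, so the adjustment ran over the comparisons together. The q therefore does not set the rate of false calls within a single comparison. Values of single libraries were not used here, so no standard deviation stands beside a level, the depth behind it is unknown, and the spread between replicates enters only through the authors' q. A gene is said to have risen or fallen where that q was below 0.05. The labels do not say that the 2 libraries of a group are separate cultures, and q may then cover technical spread only. FPKM is a level relative to the other RNA sequenced, and a change in RNA per cell cannot be told apart from a change in the proportion of cells that express a gene.

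The overexpressed genes checked the labels. FKH1 stood at 20.9 FPKM in no OE, 1458 in Fkh1 OE and 8.23 in Fkh2 OE. FKH2 stood at 14.3, 13.3 and 2220 FPKM in the same order. Each factor was thus high in its own group, and in the authors' deposited table FKH1 fell in Fkh2 OE against no OE (q = 0.000327).

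With Fkh2 OE, RNA of most ribosome biogenesis genes rose. Of the 60 genes, 52 rose against no OE in the authors' deposited table and 0 fell, where 13.7% of the 6208 genes tested rose and 17.0% fell. The median ratio of Fkh2 OE to no OE was 2.05 (range 1.04 to 3.86) over the 60 genes and 0.979 over all genes of at least 1 FPKM. All 60 had a higher value, 32 of them at least 2-fold. The shares of all genes past these marks were not counted, but the upper quartile of their log2 ratio was 0.35. At an unadjusted Cuffdiff p below 0.05 the count was 54 higher and 0 lower, where 18.1% and 21.5% of all genes tested were, and at q below 0.01 it was 47 higher, where 9.12% of all genes were.

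With Fkh1 OE most genes also had higher levels, with smaller ratios. Of the 60 genes, 35 rose against no OE in the authors' deposited table and 0 fell, where 5.59% of the 6212 genes tested rose and 5.39% fell. The median ratio was 1.46 (range 0.737 to 2.08), against 1.00 for all genes, and 1 gene, UTP4, reached 2-fold. At an unadjusted Cuffdiff p below 0.05, 47 were higher and 1, REA1, was lower, where 9.27% and 8.98% of all genes were. At q below 0.01 the count was 21 higher, where 2.48% of all genes were. The comparisons of Fkh1 OE and Fkh2 OE with no OE share the control libraries, so they are not independent of each other.

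The direct comparison of both overexpressing groups does not use the controls. It does use the same overexpressing libraries, and its ratio follows from the ratios to no OE, so it is not separate evidence. In the authors' deposited table, 27 of the 60 genes were higher in Fkh2 OE than in Fkh1 OE and 0 were lower, where 7.24% of the 6227 genes tested were higher and 11.7% lower. At an unadjusted Cuffdiff p below 0.05, 33 were higher and 0 lower, where 11.5% and 15.8% of all genes were. At q below 0.01 the count was 13 higher, where 2.99% of all genes were. The median ratio of Fkh2 OE to Fkh1 OE was 1.40 (range 0.762 to 2.01), against 0.973 for all genes. The level lay lowest in no OE, between in Fkh1 OE and highest in Fkh2 OE for 54 of the 60 genes. The share of all genes with this order was not counted.

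**Figure D1:**
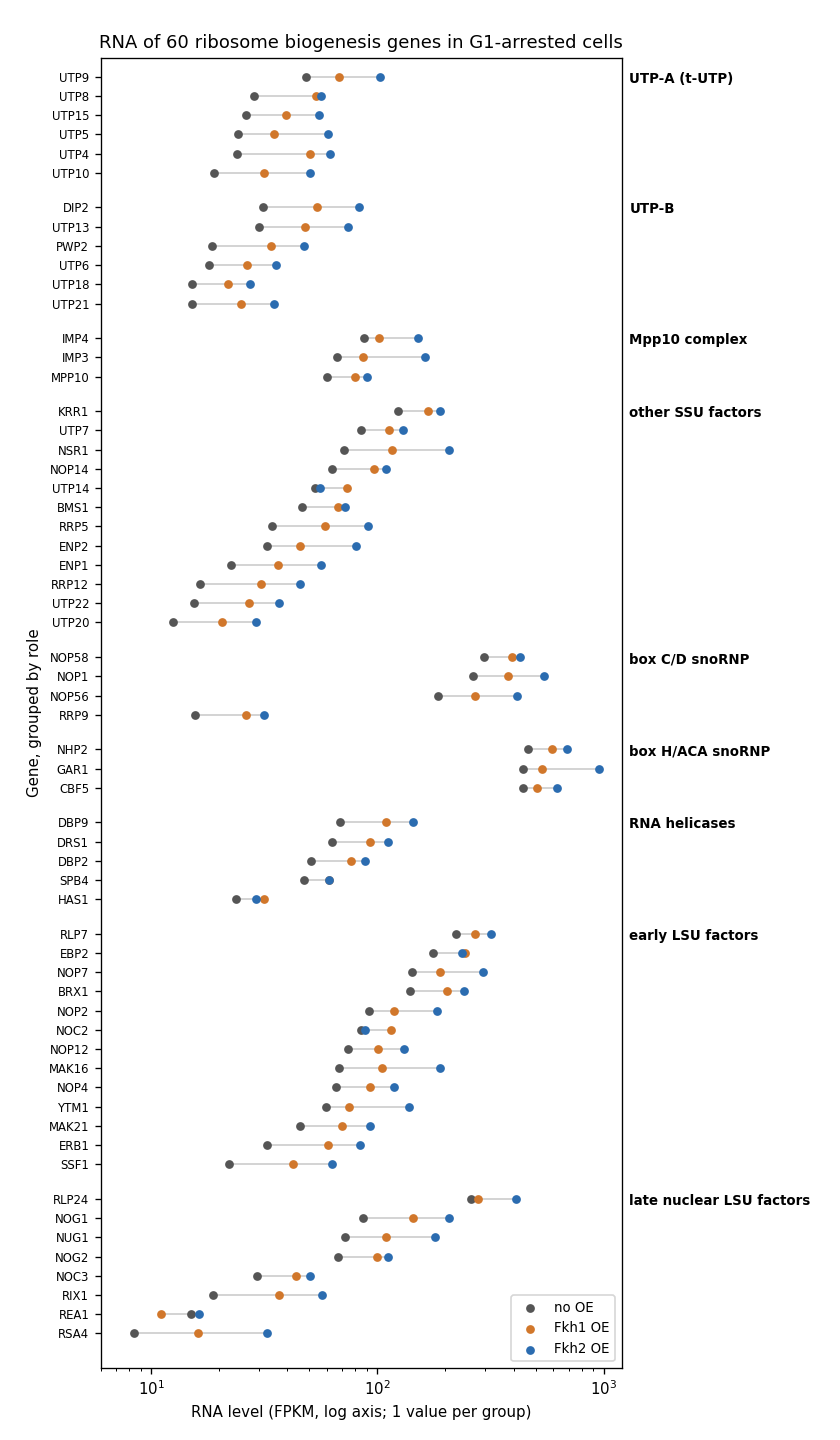
Level of each of the 60 genes, by role, in FPKM on a log axis; the 3 markers of a gene are the authors' values for the 3 groups, each made from 2 libraries. The Fkh2 OE marker lies furthest right for 55 genes, and levels in no OE run from 8.45 to 462.5 FPKM.

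In absolute terms the group spanned a wide range of levels in no OE. The 3 highest of the 60 were genes of the box H/ACA snoRNP, with NHP2 at 462.5, GAR1 at 440.0 and CBF5 at 439.2 FPKM. RSA4 at 8.45, UTP20 at 12.5 and REA1 at 15.0 FPKM were the lowest. The median of the 60 levels was 51.8 FPKM in no OE, 74.3 in Fkh1 OE and 90.5 in Fkh2 OE. Together the 60 genes made up 0.294% of the summed FPKM of all entries in no OE, 0.329% in Fkh1 OE and 0.546% in Fkh2 OE. The share in Fkh1 OE lies near that of no OE, and the denominator differed: the summed FPKM of all entries was 2162810 in Fkh1 OE against 1777340 in no OE, and MFA1 and MFA2, which encode the a-factor pheromone, held 12.6% of it against 5.67%. When FPKM was rescaled to the same sum in each group, the log2 median of Fkh1 OE against no OE was 0.27 for the 60 genes in place of 0.55, while the median of all genes moved from 0.0033 to -0.28. Relative to the median of all genes, on either scale, the 60 genes lay 0.55 higher. On the rescaled values 55 of the 60 genes remained above no OE in place of 59.

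**Figure D2:**
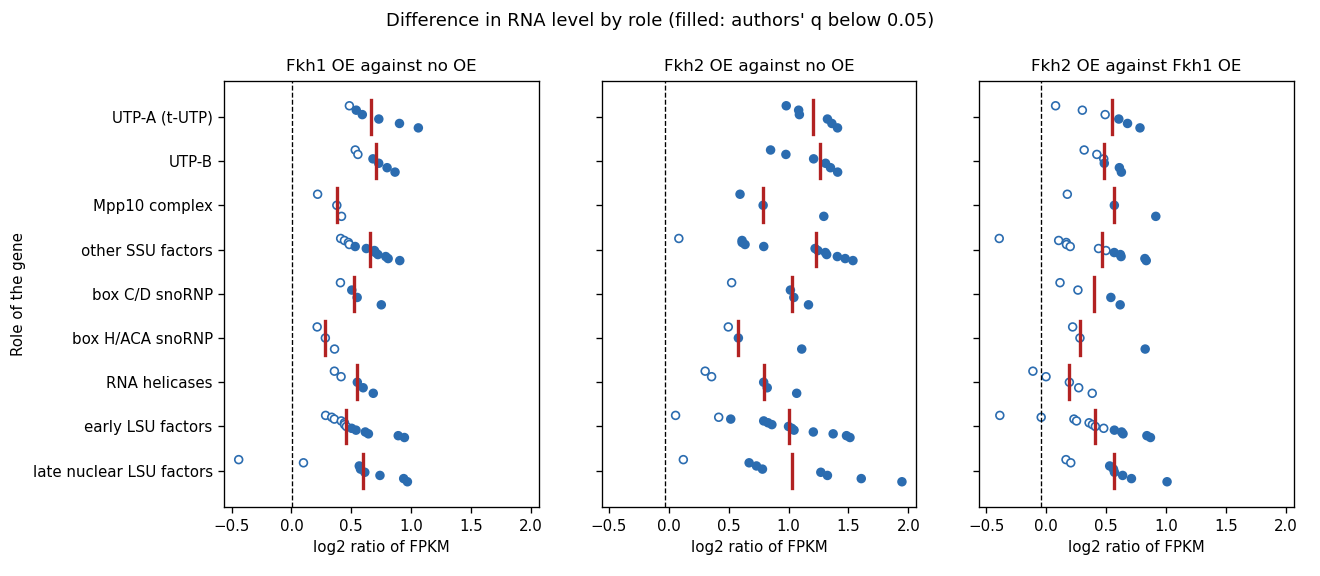
Log2 ratio of FPKM for each gene by role, in the 3 comparisons; filled circles passed the authors' q below 0.05, red bars are the median of the role and the dashed line is the median of all genes. In Fkh2 OE against no OE all 60 points lie right of that line; the comparison of Fkh2 OE with Fkh1 OE has open circles on its left side.

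The proteins that load onto the precursor earliest form UTP-A, also called t-UTP, of which 6 genes are on the list. All 6 rose with Fkh2 OE and 5 rose with Fkh1 OE, with median ratios of 2.31 and 1.58. UTP4 had the highest ratio to no OE of the 60 genes with Fkh1 OE: it stood at 24.1 FPKM in no OE, 50.2 in Fkh1 OE and 61.9 in Fkh2 OE, with q = 0.000327 for each comparison with no OE in the authors' deposited table. The Fkh2 OE level of UTP4 was not separated from its Fkh1 OE level there (q = 0.267). UTP10, which encodes the longest protein of the complex, stood at 19.1, 31.6 and 50.6 FPKM, 1.66-fold higher with Fkh1 OE (q = 0.00283 in the authors' deposited table) and 2.66-fold higher with Fkh2 OE (q = 0.000327). UTP5, at 24.1, 35.1 and 60.4 FPKM, rose with Fkh1 OE and was 1.72-fold higher again in Fkh2 OE than in Fkh1 OE (q = 0.00116 in the authors' deposited table). UTP9 had the lowest Fkh1 OE ratio of the complex, 1.40 (q = 0.0556 in the authors' deposited table).

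UTP-B, the complex that joins next, has 6 genes on the list. All 6 rose with Fkh2 OE (median ratio 2.39) and 4 rose with Fkh1 OE (1.63). DIP2 stood at 31.3 FPKM in no OE, 54.4 in Fkh1 OE and 83.1 in Fkh2 OE, and PWP2 at 18.6, 33.9 and 47.4 FPKM. In the authors' deposited table both genes rose with either factor and were higher in Fkh2 OE than in Fkh1 OE, DIP2 with q = 0.0119 and PWP2 with q = 0.0482. UTP6 and UTP18 were 1.47-fold and 1.45-fold higher with Fkh1 OE and did not pass the test (q = 0.0763 and 0.0644 in the authors' deposited table).

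The Mpp10 complex, which helps the U3 snoRNA pair with the precursor, has 3 genes on the list. With Fkh2 OE 3 of 3 genes rose, and with Fkh1 OE 0 of 3 passed the test, with 1 of 3 at an unadjusted Cuffdiff p below 0.05. IMP3 stood at 66.2 FPKM in no OE, 86.0 in Fkh1 OE and 162 in Fkh2 OE. Its level in Fkh2 OE was 1.89-fold that in Fkh1 OE (q = 0.000894 in the authors' deposited table), the second highest ratio of the 60 genes in that comparison. IMP4 was 1.48-fold higher in Fkh2 OE than in Fkh1 OE (q = 0.0196 in the authors' deposited table), and MPP10 was 1.13-fold higher (q = 0.568).

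A further 12 factors of the small subunit are on the list, and 11 of them rose with Fkh2 OE and 8 with Fkh1 OE. NSR1, the yeast counterpart of nucleolin, stood at 71.4, 116 and 207 FPKM in no OE, Fkh1 OE and Fkh2 OE, and RRP12, needed for export of both subunits, at 16.4, 30.7 and 45.5 FPKM. RRP5, which takes part in making both subunits, stood at 34.2, 59.0 and 90.6 FPKM. These 3 genes were 2.90-fold, 2.78-fold and 2.65-fold higher with Fkh2 OE than in no OE, each with q = 0.000327 in the authors' deposited table. The entry of NSR1 extends beyond its coding sequence. UTP20, a very large scaffold protein, stood at 12.5, 20.6 and 29.1 FPKM and rose with either factor. ENP2 was 1.77-fold higher in Fkh2 OE than in Fkh1 OE (q = 0.000619 in the authors' deposited table).

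UTP14, whose protein activates a helicase of the processome, was the one of these 12 that did not pass with Fkh2 OE. It stood at 52.9 FPKM in no OE, 73.6 in Fkh1 OE and 56.1 in Fkh2 OE. In the authors' deposited table it passed the test in none of the comparisons (q = 0.0539 with Fkh1 OE and 0.808 with Fkh2 OE, each against no OE, and 0.130 between the factors). Its ratio of Fkh2 OE to Fkh1 OE, 0.762, was the lowest of the 60 genes.

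snoRNPs modify the precursor. Of the 4 box C/D proteins, which serve methylation, 3 rose with either factor. NOP1, the methyltransferase fibrillarin, stood at 265 FPKM in no OE, 376 in Fkh1 OE and 547 in Fkh2 OE, and NOP56 at 185, 271 and 416 FPKM. The RNA of RRP9, a protein of the U3 snoRNP, lay far below these core proteins, at 15.6, 26.2 and 31.5 FPKM, and rose 2.02-fold with Fkh2 OE (q = 0.000327 in the authors' deposited table). NOP58, the member with a shared entry, stood at 295, 392 and 425 FPKM, and its 1.44-fold ratio with Fkh2 OE did not pass the test (q = 0.288 in the authors' deposited table).

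Of the 3 box H/ACA proteins on the list, which serve pseudouridylation, 2 rose with Fkh2 OE. With Fkh1 OE 0 of 3 passed the authors' q, and at an unadjusted Cuffdiff p below 0.05 the count was also 0. GAR1 stood at 440.0 FPKM in no OE, 535 in Fkh1 OE and 949.6 in Fkh2 OE, a 2.16-fold rise with Fkh2 OE (q = 0.000327 in the authors' deposited table). It was 1.77-fold higher in Fkh2 OE than in Fkh1 OE (q = 0.000327). CBF5, the pseudouridine synthase, stood at 439, 510 and 620 FPKM, a ratio of 1.41 with Fkh2 OE that missed the threshold (q = 0.0547 in the authors' deposited table). NHP2 stood at 462.5, 593.6 and 692 FPKM and rose with Fkh2 OE (q = 0.0164 in the authors' deposited table). The 3 proteins sit in one particle, and their ratios with Fkh2 OE ran from 1.41 to 2.16.

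RNA helicases of the DEAD-box family unwind the precursor at set steps. Of the 5 on the list, DBP2, DBP9 and DRS1 rose with either factor, and HAS1 and SPB4 passed no comparison with no OE. DBP9 stood at 68.3, 110 and 143 FPKM in no OE, Fkh1 OE and Fkh2 OE. SPB4 stood at 47.5, 60.9 and 60.9 FPKM, and HAS1 at 23.7, 31.6 and 29.2 FPKM. Between the factors 0 of 5 helicases passed the authors' q, and 0 of 5 did at an unadjusted Cuffdiff p below 0.05, with a median ratio of 1.14.

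Early factors of the large subunit numbered 13, of which 11 rose with Fkh2 OE and 6 with Fkh1 OE. SSF1, which binds the early precursor, stood at 22.1 FPKM in no OE, 42.6 in Fkh1 OE and 63.2 in Fkh2 OE. Its near-identical copy SSF2 stood at 33.5, 45.6 and 51.5 FPKM. MAK16 stood at 67.4, 105 and 189 FPKM, 2.80-fold higher with Fkh2 OE than in no OE and 1.79-fold higher than in Fkh1 OE (q = 0.000327 for both in the authors' deposited table).

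NOP7, ERB1 and YTM1 encode the partners of one complex and had unequal ratios with Fkh1 OE. ERB1 stood at 32.5, 60.2 and 84.1 FPKM and rose 1.86-fold with Fkh1 OE (q = 0.000327 in the authors' deposited table). YTM1 stood at 59.5, 75.1 and 137 FPKM, and NOP7 at 142, 190 and 294 FPKM. With Fkh1 OE their ratios of 1.26 and 1.33 did not pass (q = 0.215 and 0.106 in the authors' deposited table). All 3 rose with Fkh2 OE, by 2.59-fold, 2.31-fold and 2.06-fold, and the ratio of Fkh2 OE to Fkh1 OE was 1.83 for YTM1 (q = 0.000327) and 1.55 for NOP7 (q = 0.00775) in the authors' deposited table. Whether the response to Fkh1 OE differs between these 3 genes was not tested.

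NOC2 and EBP2 were the early large-subunit factors that did not pass with Fkh2 OE. NOC2 stood at 84.7 FPKM in no OE, 115 in Fkh1 OE and 88.1 in Fkh2 OE. Its partner MAK21 (also called NOC1) stood at 45.4, 69.6 and 92.5 FPKM and rose 2.04-fold with Fkh2 OE (q = 0.000327 in the authors' deposited table). NOC3, the partner of NOC2 at a later step, stood at 29.3, 43.7 and 50.4 FPKM and rose 1.72-fold (q = 0.00166 in the authors' deposited table).

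Of the 8 late nuclear factors of the large subunit, 7 rose with Fkh2 OE and 6 with Fkh1 OE, and 6 were higher in Fkh2 OE than in Fkh1 OE. RSA4 (chromosome III, 240805 to 242352, minus strand, build R64), whose protein is an adaptor on the pre-60S particle, stood at 8.45 FPKM in no OE, 16.2 in Fkh1 OE and 32.6 in Fkh2 OE. It had the highest ratio of the 60 genes both for Fkh2 OE against no OE, 3.86, and for Fkh2 OE against Fkh1 OE, 2.01 (q = 0.000327 for both in the authors' deposited table). It was also the gene with the lowest level in no OE. RIX1 (chromosome VIII, 493896 to 496187, plus strand), of the complex that processes a spacer of the precursor, stood at 18.7, 36.6 and 57.0 FPKM, 3.05-fold higher with Fkh2 OE than in no OE (q = 0.000327 in the authors' deposited table). The GTPases NOG1, NOG2 and NUG1 rose with either factor, NOG1 to 208 and NUG1 to 179 FPKM in Fkh2 OE from 86.3 and 71.7 in no OE.

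REA1 (chromosome XII, 349006 to 363738, minus strand) encodes the very large ATPase that pulls Rsa4 and Ytm1 off the particle. It stood at 15.0 FPKM in no OE, 11.1 in Fkh1 OE and 16.3 in Fkh2 OE, the one gene of the 60 with a lower value in Fkh1 OE than in no OE. That ratio of 0.737 did not pass the test (q = 0.0799 in the authors' deposited table), nor did its ratio of 1.09 with Fkh2 OE (q = 0.711). It was higher in Fkh2 OE than in Fkh1 OE, 1.48-fold (q = 0.0232 in the authors' deposited table). It is the longest of the 60 genes, 14733 bp, where the shortest has 471 bp.

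The 8 genes that did not pass with Fkh2 OE were UTP14, NOC2, EBP2, HAS1, SPB4, NOP58, CBF5 and REA1, with none in UTP-A, UTP-B or the Mpp10 complex. They were singled out after their values were seen. By subunit, 26 of 27 small-subunit genes and 18 of 21 large-subunit genes rose with Fkh2 OE, and 17 of 27 and 12 of 21 rose with Fkh1 OE.

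The ratios to no OE were higher among genes of low level. To keep the level out of the ratio, genes were ordered by their FPKM in the group that the ratio did not use. With Fkh2 OE against no OE, the median ratio was 2.42 in the 20 genes with the lowest level, 1.80 in the middle 20 and 1.86 in the highest 20. With Fkh1 OE it was 1.63, 1.47 and 1.35. Spearman's rank correlation between the level and the log2 ratio was -0.37 over the 60 genes for Fkh2 OE and -0.48 for Fkh1 OE, where all entries of at least 1 FPKM gave 0.02 (n = 6171) and 0.13 (n = 6172). The ratio of Fkh2 OE to Fkh1 OE gave -0.13 over the 60 genes. Between gene length and the log2 ratio the correlation was 0.48 for Fkh1 OE and 0.18 for Fkh2 OE. All points of such a correlation come from the same libraries, so the values describe these libraries.

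**Figure D3:**
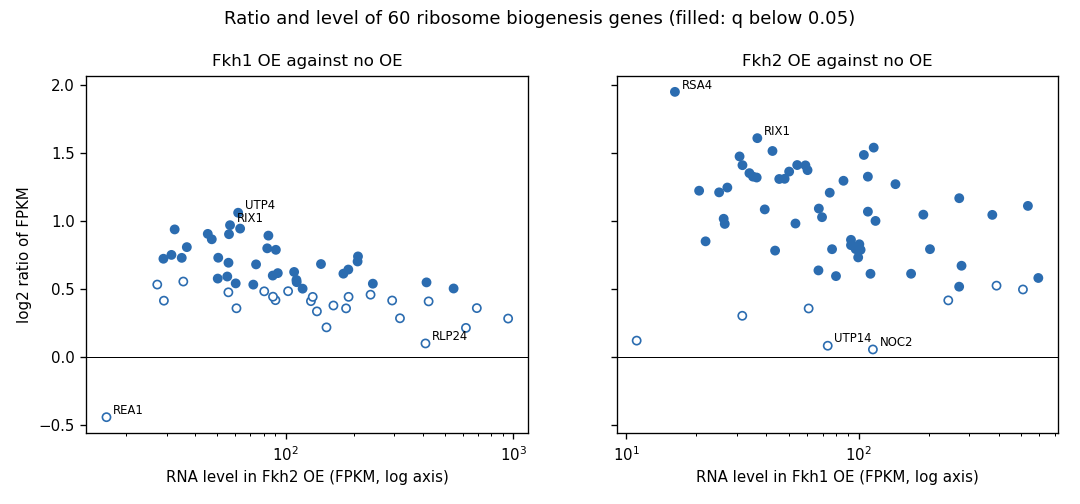
Log2 ratio of FPKM against the level in the group the ratio did not use (FPKM, log axis), for the 60 genes, with Fkh1 OE on the left and Fkh2 OE on the right, each against no OE; each point is a gene, filled where the authors' q was below 0.05, and the line marks a log2 ratio of 0. The points slope down, with Spearman's correlation of -0.48 with Fkh1 OE and -0.37 with Fkh2 OE.

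Most genes of the same pathway outside the 60 that passed the test also rose. Of 79 other ribosome assembly genes, 54 rose and 2 fell with Fkh2 OE (median ratio 1.72), where 13.7% and 17.0% of all genes tested did. With Fkh1 OE 28 rose and 0 fell (1.33), where 5.59% and 5.39% of all genes did, and 1 was lower at an unadjusted Cuffdiff p below 0.05. RRP36 stood at 31.0, 44.8 and 97.4 FPKM in no OE, Fkh1 OE and Fkh2 OE, and RCL1 at 33.9, 50.6 and 106 FPKM. Both encode processome proteins, and they were 3.15-fold and 3.12-fold higher with Fkh2 OE (q = 0.000327 in the authors' deposited table). MTR4, the helicase of the nuclear exosome, had the highest Fkh1 OE ratio of this list, 2.00, at 22.9, 45.9 and 57.6 FPKM. SNU13, a box C/D protein that is not among the 60, stood at 171, 293 and 478 FPKM. NOP10, also a snoRNP gene outside the 60, stood at 1770, 2746 and 2273 FPKM. In the authors' deposited table NOP10 rose 1.55-fold with Fkh1 OE (q = 0.0460). Its ratio of 1.28 with Fkh2 OE did not pass (q = 0.294), nor did its ratio of Fkh2 OE to Fkh1 OE, 0.828 (q = 0.436). The 2 genes that fell were DBP8, a helicase, at 18.3, 12.2 and 6.67 FPKM, and NOB1, the endonuclease that makes the mature end of 18S rRNA, at 168, 141 and 94.4 FPKM.

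RNA polymerase I makes the precursor. Of its 7 subunits on the list, 5 rose with Fkh2 OE and 4 with Fkh1 OE, where 13.7% and 5.59% of all genes tested did. The median ratios were 2.09 and 1.70. RPA135, the second largest subunit, stood at 26.3 FPKM in no OE, 55.8 in Fkh1 OE and 92.1 in Fkh2 OE, and RPA12 at 79.2, 165 and 219 FPKM. Of 8 initiation factors, 1 rose and 2 fell with Fkh2 OE, where 13.7% and 17.0% of all genes tested did. RRN10, of the upstream activation factor, stood at 144, 93.2 and 54.0 FPKM and fell with either factor (q = 0.0424 with Fkh1 OE and 0.000327 with Fkh2 OE in the authors' deposited table). Cytosolic ribosomal protein genes, of which 136 were tested, had 64 rises and 0 falls with Fkh2 OE (median ratio 1.41). With Fkh1 OE they had 30 rises and 0 falls (1.25), where 5.59% of all genes tested rose and 5.39% fell. At an unadjusted Cuffdiff p below 0.05, 0 of the ribosomal protein genes were lower in either comparison. Many of these genes have near-identical copies that share reads, so single values are uncertain.

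**Figure D4:**
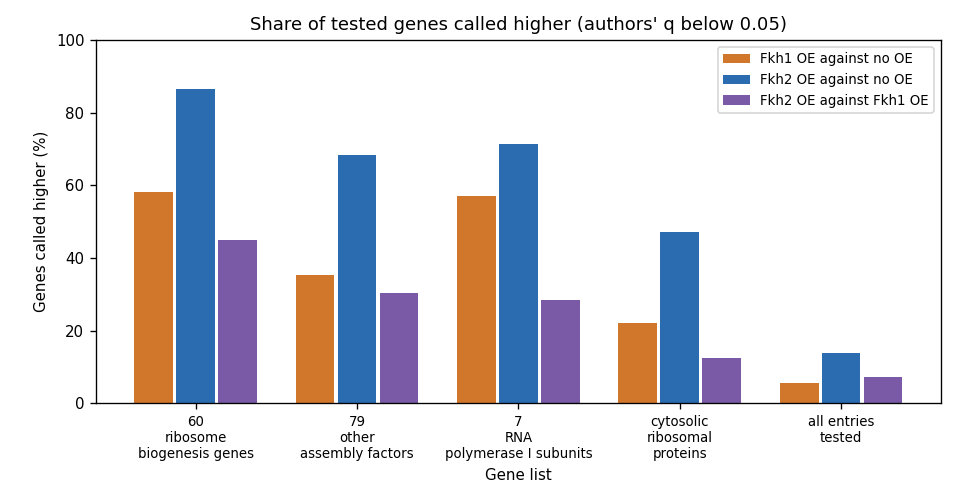
Percent of genes with the authors' q below 0.05 and a higher level (vertical axis), for the 60 ribosome biogenesis genes, 3 comparison lists and all entries tested (horizontal axis), with 1 bar for each of the 3 comparisons. The 60 genes reach 58.3%, 86.7% and 45.0% against backgrounds of 5.59%, 13.7% and 7.24%.

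Of 11 regulators of ribosome genes, 2 rose and 3 fell with Fkh2 OE, counts not far from the 13.7% and 17.0% of all genes tested, so they show nothing particular to this list. IFH1, a coactivator of ribosomal protein genes, stood at 28.9 FPKM in no OE, 41.7 in Fkh1 OE and 49.6 in Fkh2 OE, a rise with either factor (q = 0.0389 and 0.00214 in the authors' deposited table). The entry of IFH1 is shared with YLR222C-A, so these values are not those of IFH1 alone. FHL1, the forkhead-domain protein that recruits Ifh1, stood at 11.9, 11.5 and 6.59 FPKM and fell with Fkh2 OE (q = 0.000894 in the authors' deposited table). RAP1, which binds the same promoters, stood at 19.2, 13.9 and 9.45 FPKM and fell with Fkh2 OE. CRF1, a corepressor that competes with Ifh1, stood at 130.0, 78.2 and 43.9 FPKM and fell with either factor (q = 0.00260 and 0.000327 in the authors' deposited table). SFP1, an activator of ribosome biogenesis genes, stood at 33.3, 49.6 and 41.5 FPKM and rose with Fkh1 OE (q = 0.0198 in the authors' deposited table), and with Fkh2 OE its q was 0.255. TOD6, a repressor that binds their promoters, stood at 18.9, 26.0 and 30.2 FPKM and rose with Fkh2 OE (q = 0.0123 in the authors' deposited table).

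Markers of the cells' state were read in the same table. Of 12 genes of the pheromone response, 4 fell with Fkh2 OE (FUS1, FIG1, AGA2 and KAR4) and 0 rose, where 17.0% and 13.7% of all genes tested did. With Fkh1 OE 0 of the 12 passed the authors' q, where 5.39% of all genes tested fell and 5.59% rose. At an unadjusted Cuffdiff p below 0.05 the count with Fkh1 OE was also 0. The list's summed level was 18486 FPKM in no OE, 20980 in Fkh1 OE and 14322 in Fkh2 OE. Of 12 genes of S and M phase, HHF1 and CLB2 rose and HTA1 and HTB1 fell with Fkh2 OE, and HHF1 rose with Fkh1 OE. These counts of 2 higher and 2 lower of 12 lie near the 13.7% and 17.0% of all genes tested. The summed level of these 12 genes was 6401, 6878 and 4949 FPKM. Most of that sum came from the histone genes HTA1, HTB1, HHT1 and HHF1. The median level of the 12 was 26.0 FPKM in no OE, 23.6 in Fkh1 OE and 28.9 in Fkh2 OE. Of 6 genes of galactose use, 0 passed the authors' q, and at an unadjusted Cuffdiff p below 0.05 the count was 0 in both comparisons with no OE. Their sums were 23627, 25076 and 22545 FPKM. None of these markers was at 0 in any group. The part of these differences in the rise of the ribosome biogenesis genes was not tested.

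The same 60 genes were also read in the replication data. Bromodeoxyuridine (BrdU), a thymidine analogue taken up by new DNA, was immunoprecipitated after cells of the same 3 kinds had been released for 60 min into 0.2 M hydroxyurea, which stops replication forks near early origins. The authors' deposited signal is 1 combined column per group of 3 immunoprecipitated libraries, in 50 bp bins and relative units, so no test was possible. Over the gene bodies the median signal of the 60 genes was 0.00477 in no OE, 0.00694 in Fkh1 OE and 0.00483 in Fkh2 OE. Over 6002 nuclear protein-coding genes it was 0.00440, 0.00620 and 0.00467. The median ratio was 1.33 with Fkh1 OE and 1.05 with Fkh2 OE for the 60 genes, beside 1.37 and 1.03 for all genes, so the medians of the list lay near those of the genome. These ratios depend on the scale of the columns: rescaled to the same sum, the log2 medians of the 60 genes were -0.065 with Fkh1 OE and 0.70 with Fkh2 OE, beside -0.026 and 0.67 for all genes.

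In no OE the lower and upper quartiles of the signal were 0.00410 and 0.00749 over the 60 genes. Over all nuclear protein-coding genes they were 0.00383 and 0.00554. Of the 60, NOC3 had by far the highest signal, 0.267 in no OE, 0.287 in Fkh1 OE and 0.143 in Fkh2 OE. PWP2 followed at 0.111, 0.0916 and 0.0383. PWP2, ERB1 and MPP10 were the 3 of 60 genes with at least 2-fold lower signal in Fkh2 OE, at ratios of 0.347, 0.370 and 0.406 to no OE, where 5.66% of all genes with a ratio were that low. With the columns rescaled to the same sum, 0 of the 60 were that low, where 1.64% of all genes were. RNA of PWP2, ERB1 and MPP10 rose with Fkh2 OE in the G1-arrested cells, as did that of 52 of the 60 genes. A link between both readouts was not tested. With Fkh1 OE 4 of 60 genes had at least 2-fold higher signal, IMP3 the highest of them at 2.87-fold, where 12.1% of all genes were that high. After rescaling it was 1 of the 60, where 6.34% of all genes were that high.

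**Figure D5:**
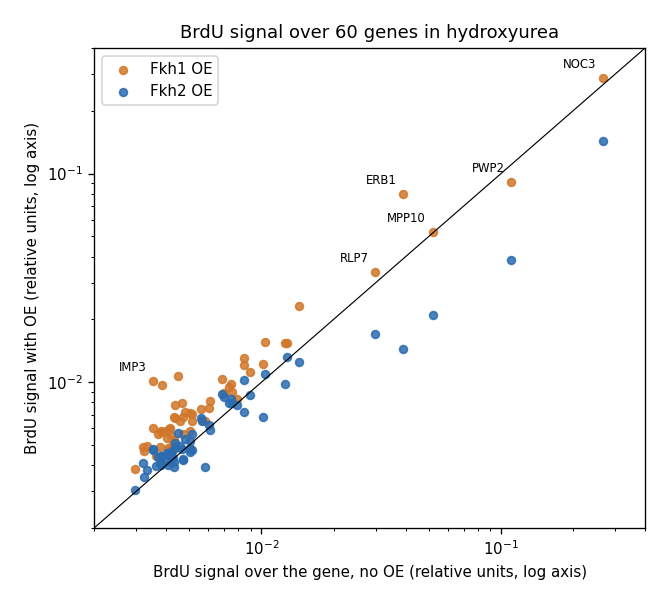
Authors' BrdU signal in hydroxyurea (relative units, log axes) over the body of each of the 60 genes, no OE on the horizontal axis and Fkh1 OE or Fkh2 OE on the vertical axis; the diagonal marks equal signal. With Fkh1 OE 58 of 60 genes lie above the diagonal (92.1% of all genes), with Fkh2 OE 39 (57.8% of all genes), and PWP2, ERB1 and MPP10 lie furthest below it. These counts depend on the scale of the columns. Rescaled to the same sum, which is not drawn, they were 27 with Fkh1 OE (46.2% of all genes) and 55 with Fkh2 OE (91.1%).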

How the data were processed

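The deposited RNA table holds FPKM, made by the authors for each gene and group of 2 libraries, beside the authors' p-value and q-value for each pair of groups. Per the file headers it is Cuffdiff output. The submitters' processing notes name TopHat2, Cufflinks, Cuffdiff and genome build R64 without versions or settings. How RNA was extracted, and whether libraries kept strand, are not given in the sources used here. The deposited log2 ratio column was damaged in 262 cells, so ratios were recomputed from FPKM with no pseudocount. No test was run on these values: calls are the authors' q below 0.05, since single-library values were not used. The table's smallest q, 0.000327, was reached by 40 of the 60 genes with Fkh2 OE, which therefore cannot be ranked by it.

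The deposited BrdU signal, in relative units, was averaged over the bins of each gene body. Bowtie2, SAMtools and bedtools are named in the submitters' processing notes. The authors' way to combine and scale libraries is not stated there. Depth per library is unknown for both assays. Per-sample columns that matched no sample numbered 0.

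Gene positions came from the RefSeq table of R64, and 54 of 60 genes had the same span in the RNA table. The entries of NSR1, NOP56, NOP58, RRP9, HAS1 and NOP4 extend beyond the coding gene.

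The 60 genes, the roles and the comparison lists were chosen with earlier results of these data known. The rule for naming genes took the 8 largest changes per comparison, the 3 highest and 3 lowest levels, the highest and lowest ratios, at least 1 gene per role and the largest changes of the other lists. Further genes were named after their values were seen, to complete complexes. Alternatives were a q below 0.01, an unadjusted p below 0.05, a 1.5-fold size rule, pseudocounts of 1 and 10, a filter at 10 FPKM, entries with 1 gene, and rescaling. Scripts used Python 3.11.15, pandas 2.3.3, numpy 2.4.6 and matplotlib 3.10.9, and the median and count steps were tested on simulated data.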

Additional observations from a re-analysis of the deposited data

How the results depend on the processing

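The count for Fkh2 OE against no OE stayed within 1.5 times its value of 52 under every threshold tried. At q below 0.01 the count was 21 in place of 35 for Fkh1 OE against no OE, and 13 in place of 27 for Fkh2 OE against Fkh1 OE. With FPKM rescaled to the same sum, the median log2 ratio was 0.27 for Fkh1 OE against no OE and 0.79 for Fkh2 OE against Fkh1 OE, where the medians of all genes became -0.28 and 0.27. With log2(FPKM + 10), which shrinks low genes by construction, the medians were 0.85 for Fkh2 OE against no OE and 0.36 for Fkh2 OE against Fkh1 OE. The BrdU medians depended on scale: with columns rescaled to the same sum they were -0.065 for Fkh1 OE, a reversed sign, and 0.70 for Fkh2 OE, where all genes gave -0.026 and 0.67, and the cause was not tested. Filters on low values and on shared entries changed no count by over 1.5 times. No paired analysis was possible because the table used holds 1 value per group, and for the same reason no replicate could be left out. The promoter motif counts and their alternatives were not run, as promoter sequences were not used here. Unknown depth limits every value, most for genes under 10 FPKM.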

Other observations

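Among the 60 genes and the 79 other ribosome assembly genes, 7 pairs are neighbours on a chromosome, 1 of them divergent and 1 of them made of 2 of the 60 genes. UTP9 and RIX1 lie in tandem on chromosome VIII, 237 bp apart, and were 2.13-fold and 3.05-fold higher with Fkh2 OE than in no OE. NSA2 and LCP5, the divergent pair, were 2.19-fold and 2.91-fold higher. Other pairs differed: GAR1 was 2.16-fold higher beside RPF1 at 1.15-fold, NOC3 1.72-fold beside CMS1 at 1.06-fold, and DBP8, at a ratio of 0.365, lies beside NMD3 at 1.51-fold. These pairs were looked at after the values of their genes were known, and no test was run on them.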
